A study of Mus musculus with 6 samples.

Results

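Inflammatory CC chemokines and their receptors were compared between the skin of mice that had alopecia areata and that of unaffected mice. The members were 7 ligands, Ccl2, Ccl3, Ccl4, Ccl5, Ccl7, Ccl8 and Ccl12, and 2 receptors, Ccr1 and Ccr2. They were represented by 13 probe sets whose only gene symbol was one of these names, of 45037 probe sets other than controls, and by 9 of 18193 genes. Total RNA of skin was hybridised to 1 array per mouse. The alopecic group held 3 C3H/HeJ mice with alopecia areata, sampled in affected skin that had lost its hair, and the unaffected group held 3 C3H/HeJ mice without the disease. All mice were of this inbred strain, in which the disease can arise spontaneously; the sources used here do not give age, sex, body site or treatment. Values are log2 RMA values, in which a difference of 1 between the groups is a 2-fold difference, and they carry no unit of molecules per cell.

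CC chemokines are small secreted proteins named for a pair of adjacent cysteines near their amino terminus. They bind receptors that couple to G proteins and direct leukocytes along a gradient of ligand. Ccl2, Ccl7, Ccl8 and Ccl12 form the monocyte chemoattractant protein group, most of whose members bind Ccr2, the receptor by which monocytes leave the bone marrow. Ccl3 and Ccl4 are the macrophage inflammatory proteins, and Ccl5, also called RANTES, is made in quantity by activated T cells and natural killer cells. Ccr1, found on monocytes, neutrophils and T cells, binds Ccl3, Ccl5 and Ccl7. Mouse Ccl8 is also a ligand of Ccr8. Alopecia areata is an autoimmune disease in which lymphocytes gather around growing hair follicles, and chemokines are among the signals that draw leukocytes into skin.

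The ligand genes lie in a pair of groups on chromosome 11. In the RefSeq gene order of GRCm38.p6, counting protein-coding genes, Ccl2, Ccl7, Ccl11, Ccl12, Ccl8 and Ccl1 follow one another, and Ccl5, Ccl9, Ccl6, Ccl3 and Ccl4 follow one another farther along. Ccr1 and Ccr2 lie near each other on chromosome 9. RefSeq promoter sequences were matched for 5 of the 9 members, Ccl3, Ccl8, Ccl12, Ccr1 and Ccr2, and not for Ccl2, Ccl4, Ccl5 and Ccl7. The 250 bases before the transcription start are shown for the matched ligands, because they are the stretches in which the letters of known inflammatory motifs were searched for. They come from the reference genome and not from C3H/HeJ. The Ccl8 stretch is chr11:82114935-82115184 on the plus strand, that of Ccl12 is chr11:82101595-82101844 on the plus strand, and that of Ccl3 is chr11:83649379-83649628 on the minus strand, all in GRCm38.p6. Each is written 5′ to 3′, and capitals mark the letters TATAAA.
Ccl8: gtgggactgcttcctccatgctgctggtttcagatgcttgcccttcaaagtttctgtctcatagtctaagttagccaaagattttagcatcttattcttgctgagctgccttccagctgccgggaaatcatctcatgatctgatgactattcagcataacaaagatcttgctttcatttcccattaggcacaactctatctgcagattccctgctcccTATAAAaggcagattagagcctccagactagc
Ccl12: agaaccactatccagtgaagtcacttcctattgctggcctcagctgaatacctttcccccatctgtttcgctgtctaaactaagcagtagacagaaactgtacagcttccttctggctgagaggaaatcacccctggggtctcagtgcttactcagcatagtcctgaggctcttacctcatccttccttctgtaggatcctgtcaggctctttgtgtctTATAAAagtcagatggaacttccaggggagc
Ccl3: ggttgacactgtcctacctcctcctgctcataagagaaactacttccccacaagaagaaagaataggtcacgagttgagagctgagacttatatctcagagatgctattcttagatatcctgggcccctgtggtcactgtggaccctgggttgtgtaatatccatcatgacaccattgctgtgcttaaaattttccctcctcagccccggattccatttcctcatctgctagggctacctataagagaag

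The motif TATAAA, the core of the TATA box at which transcription can be positioned, was found from base -32 to -27 before the start of Ccl8 and from -31 to -26 before that of Ccl12. It was held by these 2 of the 5 matched members, and by 12.4% of the 32851 promoter stretches of the same length, both strands counted. None of the 5 held the interferon gamma activated site TTCNNNGAA, the interferon-stimulated response element (GAAA, any 2 bases and GAAA again), the AP-1 letters TGANTCA or the kappa B consensus. Among all promoter stretches these were found in 7.02%, 2.98%, 6.75% and 3.9%. The matches of the motifs did not overlap in the members. The absence of a match says only that the letters are not in this window.

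On the probe set brightest over the 6 arrays, all 9 members had higher values in each alopecic mouse than in each unaffected mouse. No member passed the test over all genes. The largest difference was that of Ccl5, at 27.9-fold, followed by Ccl2 at 6.12-fold and Ccr2 at 4.66-fold, and the smallest was that of Ccl4, at 1.70-fold. The median log2 difference of the 9 members was 1.85, or 3.60-fold, against a median of -0.01 over all genes. The test was limma's moderated test with Benjamini-Hochberg adjustment over 18193 genes and a threshold of 0.05. By it 0.264% of all genes rose and 0.011% fell, while 0 of 9 members passed and 8 of 9 had an unadjusted limma p under 0.05 in the upward direction, where 4.8% of all genes did. In 6.93% of all genes the alopecic arrays lay entirely above the unaffected arrays, as they did in 9 of 9 members, and 8 of 9 members against 2.68% of genes were at least 2-fold higher. The members are a choice of known inflammatory genes made with earlier results of these data known, so these shares describe them and are no test. In whole skin, more cells of a type and more RNA per cell cannot be told apart.

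**Figure D1:**
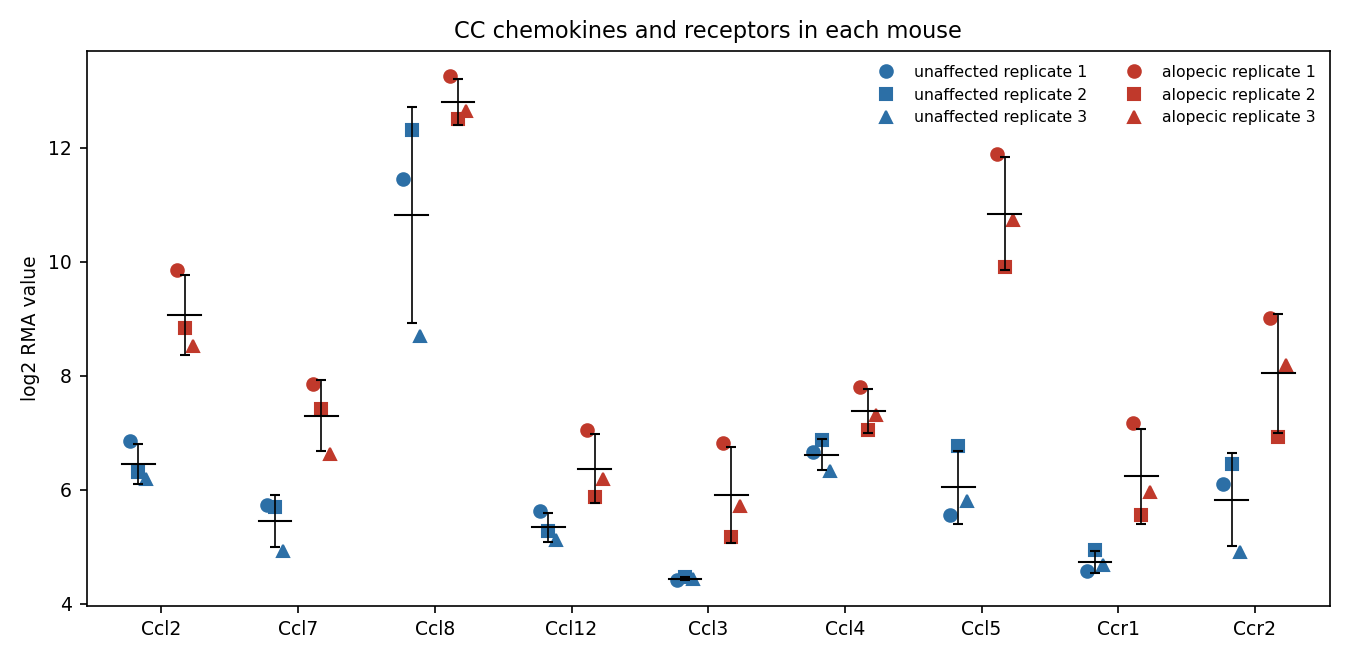
Log2 RMA value (vertical axis), for each of the 9 genes, of the probe set brightest over the 6 arrays. Points are the 3 unaffected (blue) and 3 alopecic (red) mice. Horizontal bars are group means and whiskers are standard deviations. In every gene all red points lie above all blue points; the gap is widest in Ccl5, and unaffected replicate 3 lies far below the other unaffected mice in Ccl8.

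Among the ligands of the monocyte chemoattractant group, Ccl2 differed most. Ccl2, which attracts monocytes through Ccr2, had log2 values of 9.85, 8.83 and 8.52 in alopecic replicates 1, 2 and 3 and of 6.86, 6.31 and 6.19 in unaffected replicates 1, 2 and 3. The lowest alopecic mouse thus stood 1.66 above the highest unaffected mouse. The difference was 2.61 (SE 0.39; 95% interval 1.66 to 3.56), or 6.12-fold, with an adjusted p of 0.104.

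Ccl7, a relative of Ccl2 that binds several CC receptors, stood at 7.85, 7.42 and 6.62 in the alopecic mice and at 5.73, 5.70 and 4.92 in the unaffected mice. The groups were 0.90 apart at their nearest values, and unaffected replicate 3 was the lowest. The difference was 1.85 (SE 0.38), or 3.60-fold (adjusted p = 0.278).

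Ccl8, which draws monocytes and, through Ccr8, T cells, had values of 13.26, 12.50 and 12.65 in alopecic skin and 11.45, 12.31 and 8.69 in unaffected skin. Unaffected replicate 2 came within 0.18 of the lowest alopecic mouse, and unaffected replicate 3 lay far below its group. The difference of 1.98 (SE 0.93), or 3.95-fold, had a 95% interval that included 0, from -0.31 to 4.28 (adjusted p = 0.772). Leaving out unaffected replicate 3 gave 0.92, or 1.89-fold, and leaving out unaffected replicate 2 gave 2.73, or 6.63-fold, so single unaffected mice set its size.

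Ccl12, a chemoattractant of monocytes in mice that also acts through Ccr2, stood at 7.05, 5.88 and 6.19 in alopecic skin and at 5.62, 5.28 and 5.11 in unaffected skin. Alopecic replicate 1 was well above the rest, and the groups were 0.26 apart at their nearest values. The difference was 1.03 (SE 0.33), or 2.05-fold (adjusted p = 0.578).

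The macrophage inflammatory proteins differed less than Ccl5. Ccl3 was a dim signal in unaffected skin, where its values of 4.41, 4.47 and 4.44 were nearly equal. In alopecic skin it stood at 6.82, 5.18 and 5.72, so that the alopecic mice spread over more than the groups were apart. The difference was 1.47 (SE 0.41), or 2.76-fold (adjusted p = 0.503). Ccl4 had values of 7.80, 7.04 and 7.30 in alopecic skin and of 6.66, 6.86 and 6.32 in unaffected skin. Its nearest values were 0.18 apart, and its difference of 0.76 (SE 0.24), or 1.70-fold, was the smallest of the members (adjusted p = 0.578).

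Ccl5 stood apart from the other members in the size of its difference. It had values of 11.89, 9.91 and 10.72 in alopecic skin and of 5.55, 6.77 and 5.79 in unaffected skin. The nearest values of the groups were 3.14 apart, which is more than the spread of either group. The difference was 4.80 (SE 0.58; 95% interval 3.38 to 6.23), or 27.9-fold with an interval from 10.4-fold to 74.8-fold, and it ranked 7 among 18193 genes by size. Its adjusted p of 0.0599 missed the threshold. It passed when array weights were used (adjusted p = 0.0147), when genes below the median brightness were left out (0.0296) and with an intensity trend and robust prior (0.0397), and its adjusted p ran from 0.0147 to 0.419 over 14 alternatives. With each array left out in turn its difference ran from 19.4-fold to 38.6-fold. Whether it was larger than that of another member was not tested.

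**Figure D2:**
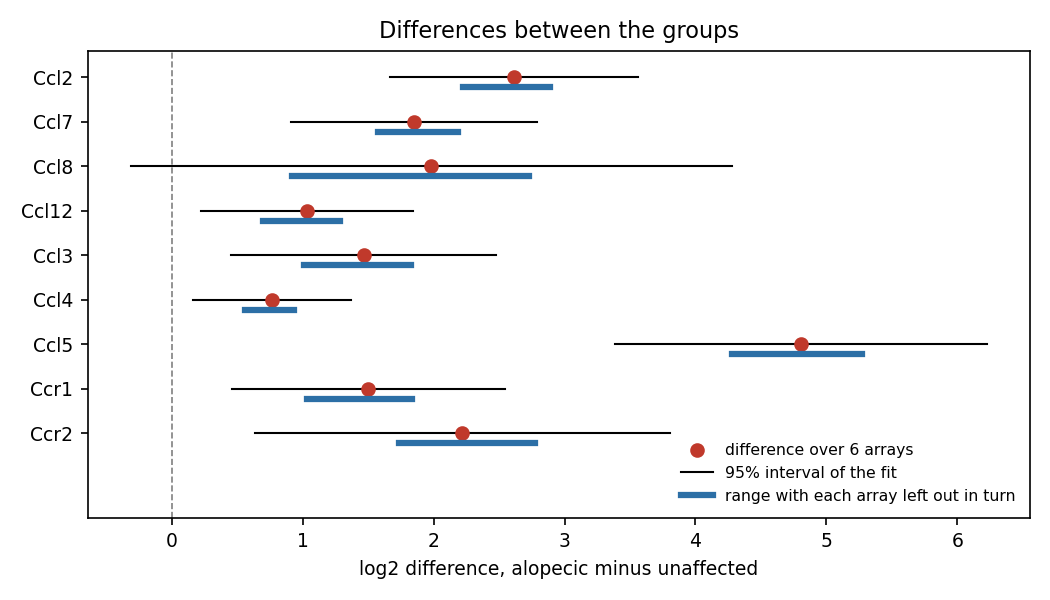
Log2 difference, alopecic minus unaffected (horizontal axis), of each of the 9 genes: red points are the limma estimates over 6 arrays, black lines their 95% intervals, and blue bars the range of the difference over the 6 fits with 1 array less. The interval of Ccl8 includes 0, and the interval of Ccl5 starts at 3.38.

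The receptors were measured by more than 1 probe set each, and their probe sets did not give the same size of difference. Ccr1 had values of 7.17, 5.56 and 5.97 in alopecic skin and of 4.57, 4.94 and 4.69 in unaffected skin on its brighter probe set, 1419609_at. All 3 alopecic mice were higher, with alopecic replicate 1 the highest, and the difference was 1.50 (SE 0.42), or 2.83-fold (adjusted p = 0.506). Its other probe set, 1419610_at, was dimmer than all but 1.70% of probe sets. There the group means were 3.69 ± 0.08 and 3.55 ± 0.25 (SD, n = 3 each), and the groups overlapped.

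Ccr2, the receptor of Ccl2, was represented by 1421186_at, its brightest probe set over the 6 arrays. Values there were 9.01, 6.93 and 8.18 in alopecic skin and 6.10, 6.46 and 4.90 in unaffected skin. In unaffected skin 1460067_at was brighter, at a mean of 6.15 against 5.82, so 1421186_at was chosen through its alopecic values. Alopecic replicate 2 and unaffected replicate 2 were the nearest, 0.47 apart. The difference was 2.22 (SE 0.64), or 4.66-fold (adjusted p = 0.524). The dim probe set 1421188_at also separated the groups, at 5.29, 4.84 and 5.30 in alopecic skin against 4.17, 4.23 and 4.25 in unaffected skin. Its difference was 0.93 (SE 0.15), or 1.91-fold, in a fit over all 45037 probe sets (adjusted p = 0.199), where 0.142% of probe sets passed. On 1460067_at and 1421187_at the groups overlapped, with differences of 0.24 (SE 0.16) and 0.25 (SE 0.35). When the probe sets of a gene were averaged, the difference of Ccr2 was 0.91 and that of Ccr1 was 0.82, and neither passed. Over the receptors, 3 of 6 probe sets were higher without overlap, as were 5.54% of all probe sets.

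**Figure D3:**
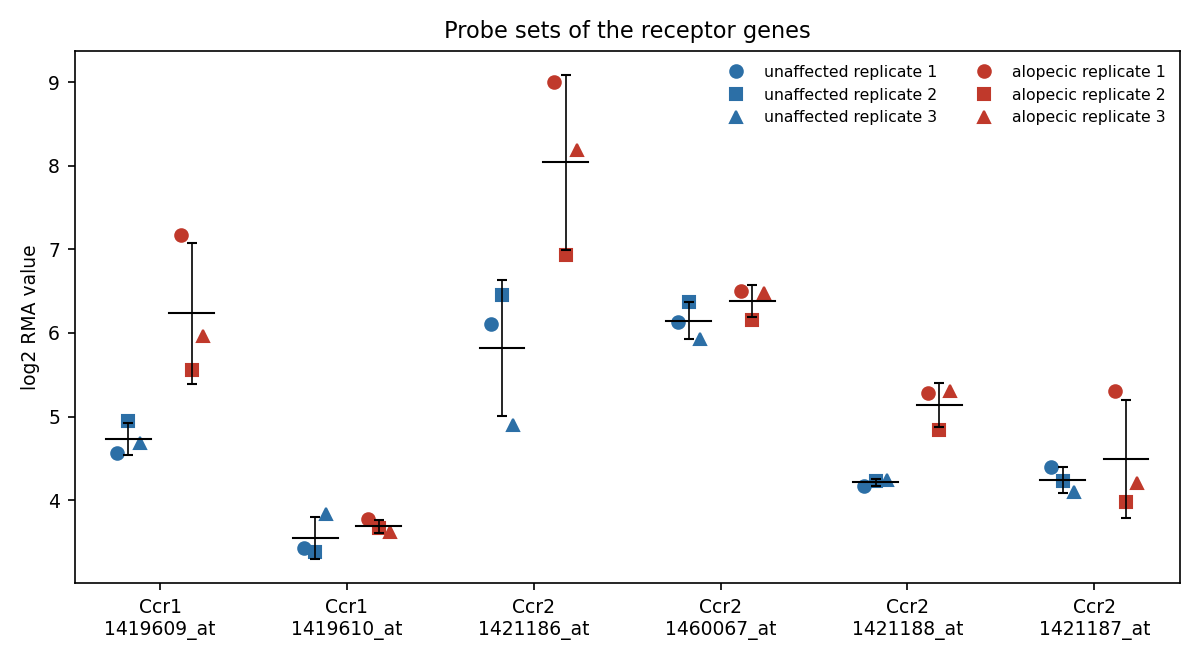
Log2 RMA value (vertical axis) of the 2 probe sets of Ccr1 and the 4 of Ccr2 in each unaffected (blue) and alopecic (red) mouse, with group means and standard deviations. The groups separate on 1419609_at, 1421186_at and 1421188_at and overlap on the other 3 probe sets.

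Of the 9 members, 6 had an unaffected mean below the lowest array median of 6.11, Ccl5 at 6.04 among them. Signals this dim have compressed RMA differences, so the folds are not exact ratios. All 9 members were highest in alopecic replicate 1. Among the unaffected mice, unaffected replicate 3 was the lowest in 6 members and unaffected replicate 1 in the other 3, which were Ccl3, Ccl5 and Ccr1. Unaffected replicate 3 also stood apart in hair: its hair shaft keratins differed from the mean of unaffected replicates 1 and 2 by a median of -7.94. With each array left out in turn the members' median difference ran from 1.48 to 2.06.

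Within the group of ligand genes around Ccl2, neighbouring genes differed in unequal amounts. Ccl11, or eotaxin, a chemoattractant of eosinophils, lies between Ccl7 and Ccl12 and had means of 8.78 ± 1.26 for the alopecic and 8.45 ± 0.46 for the unaffected mice (SD, n = 3 each). The groups overlapped, and its difference was 0.33 (SE 0.65). Ccl1, a ligand of Ccr8 made by activated T cells, lies next to Ccl8 and was chosen after its values were seen. Its groups did not overlap, at 8.41 ± 0.63 for the alopecic and 5.29 ± 0.44 for the unaffected mice (SD, n = 3 each), a difference of 3.11 (SE 0.38), or 8.65-fold, that missed the threshold as Ccl5 did (adjusted p = 0.0599). Between Ccl5 and Ccl3 lie Ccl9 and Ccl6, chemokines of myeloid cells. They differed by 0.34 (SE 0.70) and 0.54 (SE 0.51), with overlapping groups in both. Differences between neighbours were not tested.

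The other genes of the pathway were taken from lists. Of 11 other CC ligands measured, 0 passed, 2 had an unadjusted limma p under 0.05, and the median difference was 0.44. Those 2, named after their values were seen, were Ccl1 and Ccl17, whose groups did not overlap. Over all genes 4.8% had such a p upward and 6.93% were higher without overlap. That median was 0.28 when alopecic replicate 1 was left out. Leaving out alopecic replicate 2, alopecic replicate 3 or unaffected replicate 2 gave 0.86, 0.66 and 0.76. Ccl17, a ligand of Ccr4 that attracts T cells, differed by 1.81 (SE 0.64, adjusted p = 0.632), and by 1.14 without alopecic replicate 1. Of 8 other CC receptors none passed, and the median difference was 0.01; none of the 8 had an unadjusted limma p under 0.05. The brightest were Ccr6, at 0.10 (SE 0.15), and Ccrl2, at -0.04 (SE 0.39). Ccr8, the receptor of Ccl1 and of mouse Ccl8, named after its values were seen, was dim in both groups, at 4.20 ± 0.14 for the alopecic and 4.22 ± 0.13 for the unaffected mice (SD, n = 3 each). On their probe sets brightest over the 6 arrays, the 95% intervals of Ccr1 and Ccr2, from 0.46 to 2.54 and from 0.64 to 3.80, did not include 0. These intervals are not adjusted for the number of genes, and the limma adjusted p were 0.506 and 0.524. Of the 6 probe sets of Ccr1 and Ccr2 only 3 separated the groups, and that of Ccr2 used here was chosen through its alopecic values. Whether Ccr1 and Ccr2 differed from the other receptors was not tested.

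Atypical receptors bind chemokines without signalling through G proteins and remove or transport them. Of 4 measured, 0 passed limma's test and 1 had an unadjusted p under 0.05 downward, where 428 of all 18193 genes did. Without overlap 2 were lower, where 6.12% of all genes were. Ackr2, which takes up inflammatory CC chemokines, had means of 7.80 ± 0.38 for the alopecic and 8.54 ± 0.74 for the unaffected mice (SD, n = 3 each; difference -0.74, SE 0.41, adjusted p = 0.828). Unaffected replicate 3 was the highest, and without it the difference was -0.31. Ackr1, named after its values were seen, which carries chemokines across the endothelium of venules, differed by -0.53 (SE 0.21, adjusted p = 0.692). Ackr3, the brightest, differed by 0.49 (SE 0.37). The median of the 4 was -0.34, and it was 0.01 without unaffected replicate 3.

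The list of signalling proteins downstream of the receptors had 21 measured genes. Of these 0 passed limma's test and 7 had an unadjusted p under 0.05 upward, where 4.8% of all genes did. Without overlap 7 were higher and 1 was lower, where 6.93% and 6.12% of all genes were. Its median difference was 0.35. Its brightest members, the G protein subunits Gnai3 and Gnb2, differed by 0.01 (SE 0.36) and 0.11 (SE 0.11). Arrb2, an arrestin that takes chemokine receptors off the cell surface, was chosen after its values were seen. Its alopecic values of 9.07, 8.95 and 9.04 lay close together above the unaffected values of 8.08, 8.27 and 8.28, a difference of 0.81 (SE 0.11, adjusted p = 0.0831). Rac2, a GTPase of blood cells that drives their movement, chosen likewise, differed by 1.62 (SE 0.51, adjusted p = 0.574).

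Of 10 measured cytokines known to induce CC chemokines, 3 were higher without overlap, each with an unadjusted limma p under 0.05. Over all genes 6.93% were higher without overlap and 4.8% had such a p upward. Of the 3 cytokines 1 rose: Ifng, which encodes interferon gamma, with a difference of 2.24 (SE 0.25), or 4.71-fold (limma adjusted p = 0.0494). With each array left out in turn its difference ran from 1.98 to 2.38. It passed without alopecic replicate 1 (adjusted p = 0.0475) and missed the threshold in the other 5 cases, with adjusted p from 0.104 to 0.233. The other two were Csf1, the growth factor of macrophages, at 0.997 (SE 0.25, adjusted p = 0.443), and Lta, or lymphotoxin alpha, at 1.39 (SE 0.36, adjusted p = 0.445). Tnf, the tumour necrosis factor, differed by 0.09 (SE 0.29) and Il1b by 0.48 (SE 0.35), and both overlapped between the groups. Csf1, Lta, Tnf and Il1b were named after their values were seen. The median of the 10 was 0.16. Leaving out alopecic replicate 1 gave 0.10, and leaving out unaffected replicate 2 gave 0.39. The NF-kappa B pathway, through which some but not all of these cytokines act on chemokine genes, had 15 measured genes. Over the 6 arrays 0 passed limma's test, 7 had an unadjusted p under 0.05 upward, 8 were higher without overlap and the median was 0.53. Over all genes 4.8% had such a p upward and 6.93% were higher without overlap. Its brightest members, the inhibitor Nfkbia and the kinase Ikbkb, differed by 0.15 (SE 0.28) and 0.23 (SE 0.14). The inhibitor Nfkbie, chosen after its values were seen, differed by 2.03 (SE 0.29, limma adjusted p = 0.0959). It passed when alopecic replicate 1 was left out (0.0475) and missed the threshold in the other 5 cases, with adjusted p from 0.165 to 0.353. Nfkb2, a subunit of the factor chosen likewise, had a limma adjusted p of 0.134. It passed without unaffected replicate 3 (0.0287) and missed the threshold in the other 5 cases, with adjusted p from 0.343 to 0.499.

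**Figure D4:**
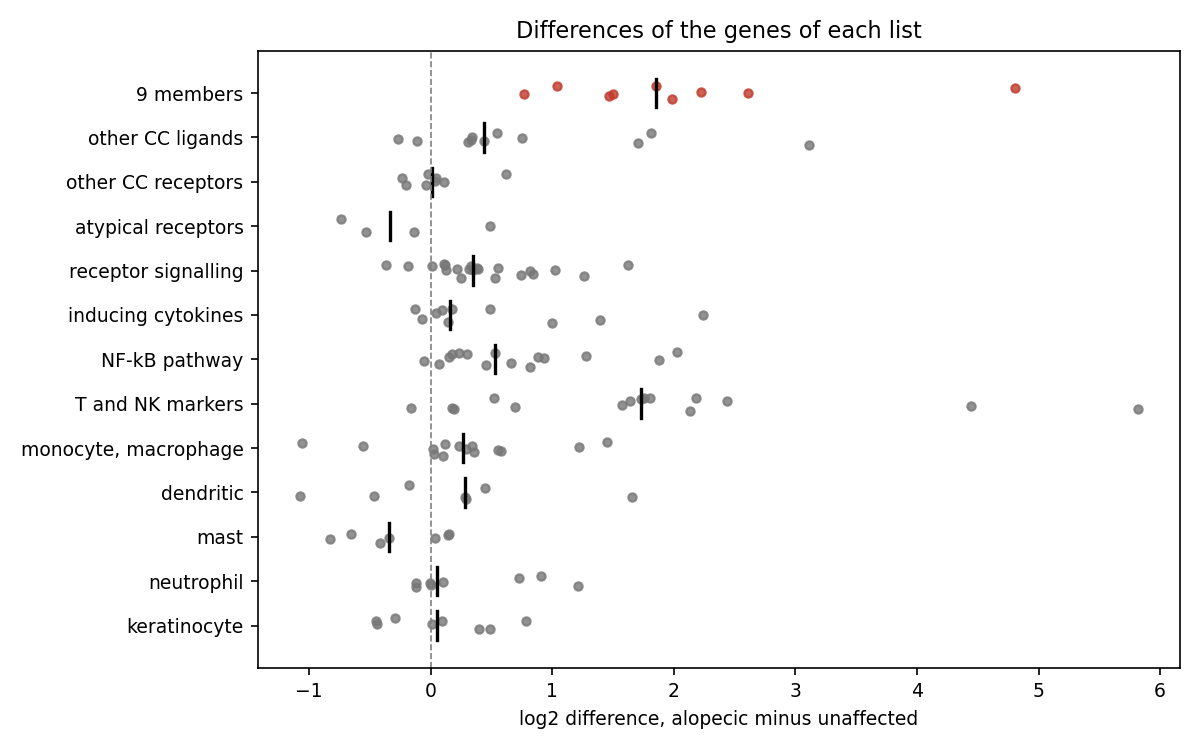
Log2 difference, alopecic minus unaffected (horizontal axis), of each measured gene of the 9 members (red) and of the pathway and cell marker lists (grey points); black bars are list medians. The members lie between 0.76 and 4.80, while the other CC receptors are centred near 0 and the T and NK markers have a median of 1.73.

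The cells that carry or make these molecules were followed by their markers. Of 15 markers of T cells and natural killer cells 0 passed limma's test and 12 had an unadjusted p under 0.05 upward, where 4.8% of all genes did. Without overlap 13 were higher and 1 was lower, where 6.93% and 6.12% of all genes were. The lower one was Cd4 at -0.16 (SE 0.12), named after its values were seen. The median difference was 1.73, and 1.25 without alopecic replicate 1. The mean log2 value of the list ran from 7.40 to 8.56 in alopecic and from 5.93 to 6.18 in unaffected skin, and was highest in alopecic replicate 1, as the members were. Cd3g and Cd3e, chains of the T cell receptor complex, differed by 1.64 (SE 0.43) and 0.52 (SE 0.15). Gzma, a granule protease chosen after its values were seen, differed by 5.82 (SE 0.68, limma adjusted p = 0.0576) and passed without alopecic replicate 2 (0.00781). Klrd1 and Nkg7, genes of cytotoxic lymphocytes chosen likewise, had adjusted p of 0.0658 and 0.176 and passed without alopecic replicate 1 (0.0475 and 0.0409). In every other fit with 1 array left out these genes missed the threshold. There the adjusted p ran from 0.131 to 0.253 for Gzma, from 0.12 to 0.317 for Klrd1 and from 0.274 to 0.494 for Nkg7. Of the 15 markers 4 had means below the lowest array median, and RMA gives no value of 0. The part of these cells in the differences of the chemokines was not tested.

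Markers of monocytes and macrophages, the main cells bearing Ccr2 and Ccr1, did not separate the groups as a list. The listed genes Ly6c1 and Ly6c2 were not matched and are not counted. Of 14 genes 0 passed limma's test and 2 had an unadjusted p under 0.05 upward, where 4.8% of all genes did. Without overlap 4 were higher and 1 was lower, where 6.93% and 6.12% of all genes were, and the median was 0.26. Named after their values were seen, the 4 were Plac8 at 1.45 (SE 0.39), Msr1 at 1.22 (SE 0.33), Cx3cr1 at 0.58 (SE 0.25) and Fcgr1 at 0.11 (SE 0.10). The lower one was Mertk at -0.56 (SE 0.25). List means ran from 7.14 to 8.24 in alopecic and from 6.86 to 7.95 in unaffected skin. Csf1r, the receptor of the growth factor of macrophages, differed by 0.10 (SE 0.41), and the lysozyme Lyz2 by 0.35 (SE 0.63). Leaving out alopecic replicate 1, 2 or 3 gave medians of 0.02, 0.65 and 0.10. Leaving out unaffected replicate 2 gave 0.56, and leaving out unaffected replicate 3 gave -0.07, so the direction depended on the arrays. Alopecic replicate 1 and unaffected replicate 3, the highest and the lowest array in most members, were also the highest and lowest for this list. The part of macrophage content in the members' values was not tested.

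**Figure D5:**
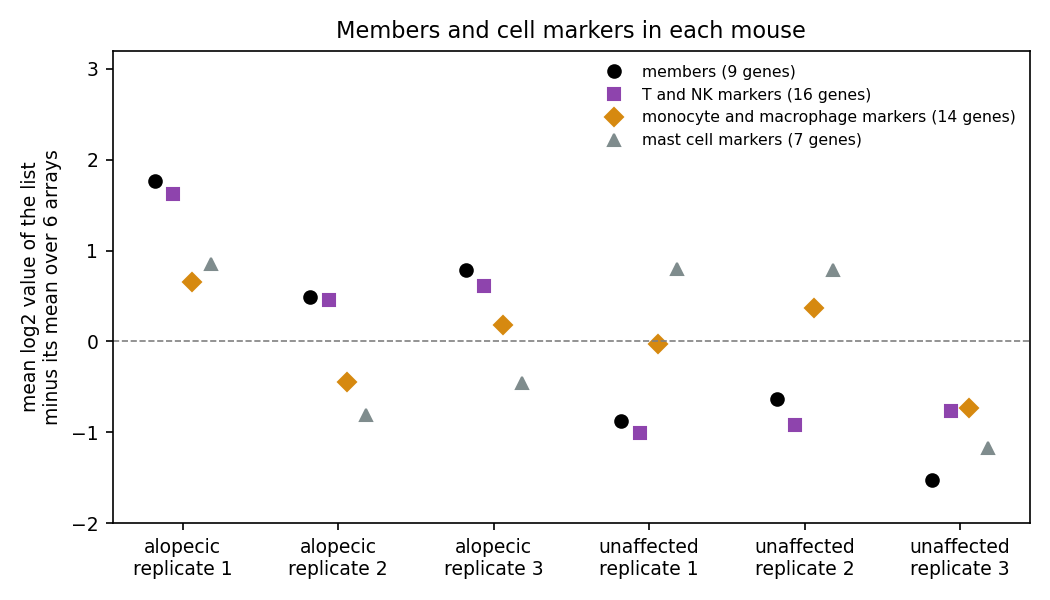
Mean log2 value of the 9 members and of 3 marker lists in each mouse, each minus its own mean over the 6 arrays (vertical axis). The legend counts 16 T and NK markers, of which the 15 measured ones were averaged. The members stand from 0.49 to 1.76 in alopecic and from -1.53 to -0.63 in unaffected mice; the T and NK markers separate the groups likewise, while the monocyte and macrophage markers and the mast cell markers overlap.

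Other cell types gave no gene past limma's threshold, and at most 2 genes of a list had an unadjusted p under 0.05. For comparison, 873 of the 18193 genes lay below that level upward and 428 downward. The medians were 0.28 for 7 dendritic cell markers, -0.35 for 7 mast cell markers, 0.05 for 8 neutrophil markers, -0.15 for 5 eosinophil markers and 0.05 for 6 markers of B and plasma cells. Tissue markers were bright in all mice: the list mean of keratinocytes ran from 12.44 to 13.24 and that of fibroblasts from 10.96 to 12.49. Their medians were 0.05 and -0.02. Endothelium (5 genes), hair shaft (8 genes) and muscle (5 genes) had medians of -0.31, 0.11 and 0.18, with 0 genes past the threshold. With 1 array left out the median of the hair shaft list ran from -2.36, without unaffected replicate 3, to 1.78, without unaffected replicate 2. Those of muscle ran from -0.65 to 0.93, of endothelium from -0.49 to 0.12, of mast cells from -0.80 to 0.12, of fibroblasts from -0.44 to 0.27, of keratinocytes from -0.13 to 0.21 and of neutrophils from -0.09 to 0.15, so none of these 7 lists kept a direction. The dendritic cell median ran from 0.03 to 0.37, that of B and plasma cells from 0.01 to 0.23 and that of eosinophils from -0.15 to -0.03. The genes with an unadjusted p under 0.05 were named after their values were seen. Jchain of plasma cells (3.65, SE 0.94) and Alox15 of eosinophils (1.67, SE 0.36) were higher without overlap. So were Itgax of dendritic cells (1.66, SE 0.52), Krt5 (0.40, SE 0.15) and Krt14 (0.48, SE 0.14). Siglecf of eosinophils (-0.39, SE 0.11) was lower without overlap, and Tek of endothelium (-0.37, SE 0.15) overlapped. Without overlap 6.93% of all genes were higher and 6.12% lower.

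The genes whose pattern over the 6 arrays was most like that of each member were then found. Likeness was the root mean square distance between log2 values after the mean of each gene was subtracted, so that 0 would be an identical pattern of the same size. Ccl3 and Ccr1, a ligand and its receptor, were each other's nearest gene among all 18193, at 0.104, with Ccr1 taken from 1419609_at. Next nearest to Ccl3 were Cxcl16 and AI662270, at 0.141 and 0.155. Next nearest to Ccr1 were AI662270 and Gpr65, at 0.137 and 0.149. For Ccr2 the nearest were Itgb2, Aif1 and Mpeg1, at 0.267, 0.305 and 0.328. For Ccl2 they were Usp18, Slfn2 and Dhx58, at 0.149, 0.189 and 0.194, and for Ccl7 they were Bcl3, Irf9 and Samd9l, at 0.191, 0.197 and 0.236.

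For Ccl5 the nearest genes were Ms4a4b, Gbp8 and Igtp, at distances of 0.350, 0.416 and 0.547, where Ccl5 itself spanned 6.34 over the arrays. Unlike Ccl5, these 3 genes passed limma's test, with adjusted p of 0.023, 0.013 and 0.00342. Their SEs were 0.40, 0.36 and 0.20 against 0.58 for Ccl5. The 3 genes were picked from these same data for lying near a gene with a large difference, so their passing is no separate support. For Ccl8 the nearest were Ehf at 0.275, Rassf10 at 0.470 and Ms4a6d at 0.525. Ccl12 was nearest to Hcst at 0.122, Gsap at 0.134 and Lst1 at 0.135, and Ccl4 to Cdk5r1 at 0.030, Btla at 0.057 and Elk3 at 0.084. The distance grows with the size of the difference, so a smaller one for Ccl4 does not rank its pattern as better matched. Among the members themselves the nearest pairs after Ccl3 and Ccr1 were Ccl4 with Ccl12, at 0.246, and Ccl3 with Ccl12, at 0.302, while Ccl5 lay at least 1.26 from every other member.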

How the data were processed

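RNA of 6 mouse skins was measured on 1 array each. Values on the log2 scale were deposited for each probe set. The submitters' processing notes name RMA, which corrects background, normalizes between arrays and summarises probes. The sources used here do not give its version or software, or a genome build. Per the labels' protocols, RNA was labelled with a 3' IVT Express kit. Array medians lay between 6.11 and 6.17. An array has no read depth, and 3 mice per group limit the precision.

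Probe sets with a single symbol in the platform annotation were used, with symbols updated by RefSeq, and a gene was its brightest probe set. Groups were compared with limma 3.58.1 in R 4.3.3 (lmFit, eBayes, two-sided, no covariate), with Benjamini-Hochberg adjustment at 0.05. "Rose" and "fell" mean past this threshold. The fit was tested on simulated data. The rule for naming genes took all members, the genes of a list past the threshold or else its 2 brightest, and 3 nearest genes per member; lists of other cell types are given by their medians, neighbours are named by position, and other genes are marked where named. Of 187 list entries 172 were matched. Members and lists were chosen with earlier results of these data known. Same-numbered mice did not deviate together (correlations -0.132, -0.197 and -0.330), so numbers were not used as pairs. Alternatives covered probe set summary, dim genes, normalization, variance model, array weights, the replicate number as a block and each array left out.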

Additional observations from a re-analysis of the deposited data

How the results depend on the processing

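Over 14 alternatives no member changed direction: of 120 values of single members 117 kept their direction and their side of the threshold, and the other 3 were those of Ccl5, which passed with array weights, without the dimmer genes and with an intensity trend. The count of members past the threshold was 1 under each of these and 0 otherwise. The median difference of the members was 2.61 without the dimmer genes, where only Ccl2, Ccl5 and Ccl8 remained to be tested. That filter used the mean over all 6 arrays, and Ccl2 and Ccl5 stayed in through their alopecic values. The pass of Ccl5 under it is therefore no support. Of all genes 50 passed in the reported fit; 139 did with array weights, which gave unaffected replicate 3 a weight of 0.227, and between 4 and 39 with each array left out in turn. With the replicate number as a block 0 genes passed by limma (873 had an unadjusted p under 0.05), 8 of 9 members had an unadjusted p under 0.05, and the cause was not tested; the numbers do not pair the mice. The number of arrays and the dim signals of 6 members in unaffected skin limit these values.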
